A study of Mus musculus with 2 samples.

Results

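The proteasome genes are those whose symbol in the platform's probe annotation starts with Psm, followed by one of the letters a to g and a digit, counted through probe sets that name 1 gene only. The rule found 49 genes among the 19503 genes that the array named in this way, measured by 55 probe sets. They hold the subunits of the proteolytic core, its regulatory particle, its alternative activators, its inhibitor and its assembly chaperones. They also hold Psmc3ip and Psme3ip1, which the symbol takes in although they encode proteins that bind a subunit. Psmc3ip acts in meiotic recombination, and Psme3ip1 encodes a partner of the activator made from Psme3.

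RNA was measured in 2 samples, one per fraction, from pooled cerebella of Tg(Pcp2-L10a-Egfp) mice at postnatal day 7. The transgene joins the ribosomal protein L10a to a green fluorescent protein under the promoter of Pcp2, a gene of Purkinje cells, and both fractions come from animals that carry it. The TRAP sample (translating ribosome affinity purification) is RNA eluted from beads that hold antibodies against the fluorescent tag, and the unbound sample is RNA that the beads left in the lysate. Each fraction was hybridised to 1 whole-transcript array, so no test was possible, no value has an error, and every difference below separates 2 arrays. The sources used here do not give the number of animals or say whether 1 pool supplied both fractions.

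The proteasome is the protease that degrades proteins tagged with ubiquitin. Its 20S core is a stack of rings: outer rings of alpha subunits that gate the entry, and inner rings of beta subunits, of which Psmb5, Psmb6 and Psmb7 carry the active sites. The 19S regulator caps the core, binds ubiquitin chains, removes them and unfolds the substrate with a ring of ATPases. In immune cells and under interferon, Psmb8, Psmb9 and Psmb10 can replace the constitutive active subunits, which forms the immunoproteasome. When proteasome activity falls, the transcription factor encoded by Nfe2l1 raises the expression of proteasome genes through antioxidant response elements in their promoters.

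Values are log2 expression as deposited, and each difference is TRAP minus unbound. A gene was taken as above the floor when it read over 7.08 on 1 array or both; this floor is the pooled median of the probe sets on the arrays. The table holds no detection calls, so a value below this floor is not evidence of absence. Because the probes of different genes differ in brightness, values are compared between the arrays for each gene, and not between genes. Of the 49 genes, 46 were above the floor, 45 of them on both arrays, and Psma8, Psmb8 and Psmb11 were below it on both. Psmg3 passed through the TRAP array alone, so that it had to differ.

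The purification can be read from lists of cell type markers. The 8 measured Purkinje cell markers were all higher in TRAP with a median difference of 1.59, and 7 passed 2-fold, beside 8.11% of all genes above the floor. Pcp2 itself read 12.98 in TRAP and 11.65 in unbound. All 8 markers of granule neurons (median -1.92) were at least 2-fold higher in unbound, as were 5 of 6 markers of granule cell progenitors and 5 of 6 of astrocytes and Bergmann glia, beside 18.6% of all genes. Of the markers of astrocytes and Bergmann glia, 2 were above the floor on the unbound array alone, so that they had to differ. The sources of a higher TRAP value cannot be separated, because both fractions are bulk RNA. They include more tagged cells, more RNA per tagged cell and a larger share of that RNA on tagged ribosomes.

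Sequences upstream of the 5 genes that were at least 2-fold higher in TRAP are shown first, because these genes lead the differences below. They come from RefSeq, assembly GRCm38.p6, which was matched by symbol and held a promoter for 42 of the 49 genes. Each line gives the 120 bases before the annotated start of the gene, read on its own strand, in lower case. Where a gene has several annotated starts, only the first listed was used, here and for all promoters below. Capitals mark CCAAT boxes (CCAAT), a GC box (GGGCGG) and the core of the antioxidant response element (TGACNNNGC), each searched on both strands.
Psmb10, chr8:105938393-105938512, minus strand: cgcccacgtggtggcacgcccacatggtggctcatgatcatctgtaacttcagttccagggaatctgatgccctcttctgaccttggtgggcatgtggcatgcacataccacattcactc
Psmb5, chr14:54617996-54618115, minus strand: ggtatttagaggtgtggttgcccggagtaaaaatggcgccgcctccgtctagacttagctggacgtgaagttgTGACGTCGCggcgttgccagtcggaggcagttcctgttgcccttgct
Psmg3, chr5:139826895-139827014, minus strand: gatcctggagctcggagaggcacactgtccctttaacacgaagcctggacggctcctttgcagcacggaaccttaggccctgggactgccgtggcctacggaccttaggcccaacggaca
Psmb3, chr11:97703314-97703433, plus strand: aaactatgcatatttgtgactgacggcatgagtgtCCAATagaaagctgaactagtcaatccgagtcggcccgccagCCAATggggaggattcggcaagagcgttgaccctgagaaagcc
Psmd8, chr7:29180674-29180793, minus strand: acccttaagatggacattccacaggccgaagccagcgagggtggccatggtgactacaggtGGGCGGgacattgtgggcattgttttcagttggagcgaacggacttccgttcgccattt

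No motif of this set was common to the 5 windows. Psmb5 alone held the antioxidant response element core, starting 47 bases before the annotated start, Psmb3 held a pair of CCAAT boxes, Psmd8 held a GC box, and the windows of Psmb10 and Psmg3 held none of the 3 motifs.

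Over the longer window from 250 bases before to 50 bases after the start, the antioxidant response element core occurred in 6 of the 42 promoters (14.3%), against 12.5% of 27025 promoters in the RefSeq table. Besides Psmb5, the matches lay in Psmb6, Psmd9, Psme4, Psmd12 and Psmc6. They are shown with up to 20 flanking bases on each side, the match in capitals, cut at the annotated start except for the match itself.
Psmb6, chr11:70525328-70525356, plus strand: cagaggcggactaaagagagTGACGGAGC
Psmd9, chr5:123228139-123228187, plus strand: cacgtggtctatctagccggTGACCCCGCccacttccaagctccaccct
Psme4, chr11:30771748-30771776, plus strand: aacctcccggcgctgcggctGCAGCGTCA
Psmd12, chr11:107479278-107479309, plus strand: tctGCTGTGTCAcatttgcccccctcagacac
Psmc6, chr14:45329577-45329625, plus strand: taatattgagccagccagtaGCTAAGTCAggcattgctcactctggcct

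In Psme4, Psmd12 and Psmc6 the motif lies on the opposite strand, so the letters printed are its reverse complement. The matches in Psmb6 and Psme4 sit at the annotated start, those in Psmd12 and Psmc6 more than 200 bases before it. The 6 genes with a match did not share a direction: their differences ran from -0.63 for Psme4 to 1.26 for Psmb5, with a median of 0.24, against 0.39 for the 34 genes above the floor without one.

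As a family, the proteasome genes read higher in TRAP than in unbound. Of the 46 above the floor, 37 were higher in TRAP by any amount, where 44.1% of all 10524 genes above the floor were. Their median difference was 0.43, with an interquartile range of 0.16 to 0.58. Over all genes above the floor the median was -0.13 and the interquartile range -0.76 to 0.43, so the proteasome genes spread less and lay higher. Without a floor, the median of all 49 was also 0.43, but the median of all genes rose. The excess of the proteasome median over that of all genes was then 0.33, against 0.56 with the floor.

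The size of the difference was modest. At least 2-fold higher in TRAP were 5 of the 46 genes, beside 8.11% of all genes above the floor, so the count lies close to that background. None was at least 2-fold higher in unbound, beside 18.6% of all genes. At 1.5-fold the counts were 12 higher in TRAP (background 18.8%) and 2 higher in unbound (background 30.9%). At 4-fold there was no proteasome gene in either direction (backgrounds 0.741% in TRAP and 4.34% in unbound).

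Most proteasome genes lie on the brighter part of the array, where differences between the fractions were less lopsided for other genes as well. The 2016 genes whose mean of both arrays fell within the interquartile range of the proteasome genes' means, 9.64 to 10.73, had a median difference of 0.00 and split nearly evenly, with 1012 higher in TRAP and 1004 higher in unbound, 205 and 200 of them at least 2-fold. Against these the proteasome median lay 0.43 higher, and against all genes above the floor 0.56 higher.

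**Figure D1:**
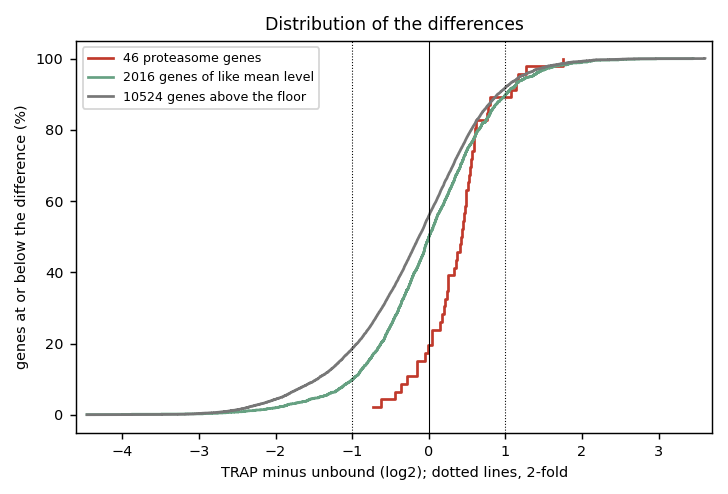
Cumulative share of genes (%) at or below each TRAP minus unbound difference (log2), for the 46 proteasome genes above the floor, 2016 genes of like mean level and all 10524 genes above the floor. The proteasome curve starts at -0.73, has its median at 0.43 and ends at 1.74, while the other curves reach below -4.

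The scaling of the arrays bears on every signed value, since the unbound array has the higher median (6.92 in TRAP and 7.25 in unbound). Subtracting each array's median adds 0.33 to every difference, and quantile normalization and removal of a loess trend moved the median of all genes above the floor by 0.17 and 0.14. Relative to that median, the number of proteasome genes above it was 39 of 46 as deposited and with array medians subtracted, 37 after quantile normalization and 36 after removal of the trend. The order of the subgroups described below depends in part on the scaling: the median of the assembly chaperones lay below that of the beta ring as deposited (0.48 and 0.59), but above it after quantile normalization (0.71 and 0.63) and after removal of the trend (0.64 and 0.57).

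Within the 20S core, 13 of the 14 constitutive genes above the floor were higher in TRAP, with a median of 0.52. The beta ring had the larger median of the 2 rings, 0.59 over 7 genes with every one higher in TRAP, while the alpha ring had 0.49 over 7 genes with 6 higher in TRAP.

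The 3 genes of the constitutive active sites differed by unequal amounts. Psmb5, which carries the chymotrypsin-like activity, read 10.42 in TRAP against 9.16 in unbound, or 2.40-fold higher. Psmb7, with the trypsin-like activity, read 11.63 in TRAP and 11.11 in unbound, a difference of 0.52. Psmb6, with the caspase-like activity, read 11.86 in TRAP and 11.43 in unbound, a difference of 0.43. These subunits stand at equal numbers in the constitutive core, and only Psmb5 of the 3 passed 2-fold. For Psmb5, Psmb6, Psmb7 and Psma5 RefSeq names pseudogenes, and whether their transcripts reach these probe sets was not tested.

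Of the beta subunits without an active site, Psmb3 differed most, at 10.93 in TRAP against 9.79 in unbound, or 2.21-fold higher. Its 2 probe sets gave 1.09 and 1.19, both past 2-fold. Psmb1 read 10.95 in TRAP against 10.15 in unbound, or 1.74-fold higher. Psmb4 read 10.50 in TRAP and 9.91 in unbound, and Psmb2 11.55 in TRAP and 11.08 in unbound. The lowest difference in the beta ring, that of Psmb6, thus lay just above the interquartile range of all genes above the floor. Each gene was also set against genes whose mean level lay within 0.5 of its own. The share of these with a lower difference ran from 70.3% for Psmb6 to 94.2% for Psmb5. It was 70.9% for Psmb2 and 74.6% for Psmb7.

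In the alpha ring, Psma7 led with 11.11 in TRAP against 10.35 in unbound, or 1.69-fold higher. Psma5 read 9.58 in TRAP and 8.99 in unbound, with its 2 probe sets at 0.44 and 0.73. Psma4, Psma3 and Psma6 lay close together with differences of 0.51, 0.49 and 0.46. The 3 probe sets of Psma3 differed by 0.49 each, the closest repeat within the family. Psma2 differed by 0.25, and Psma1 was nearly equal on the arrays, at 10.97 in both, with a difference of -0.01 that became positive once array medians were subtracted. Psma8, the testis-specific alpha subunit, read 5.35 in TRAP and 4.90 in unbound, both below the floor.

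**Figure D2:**
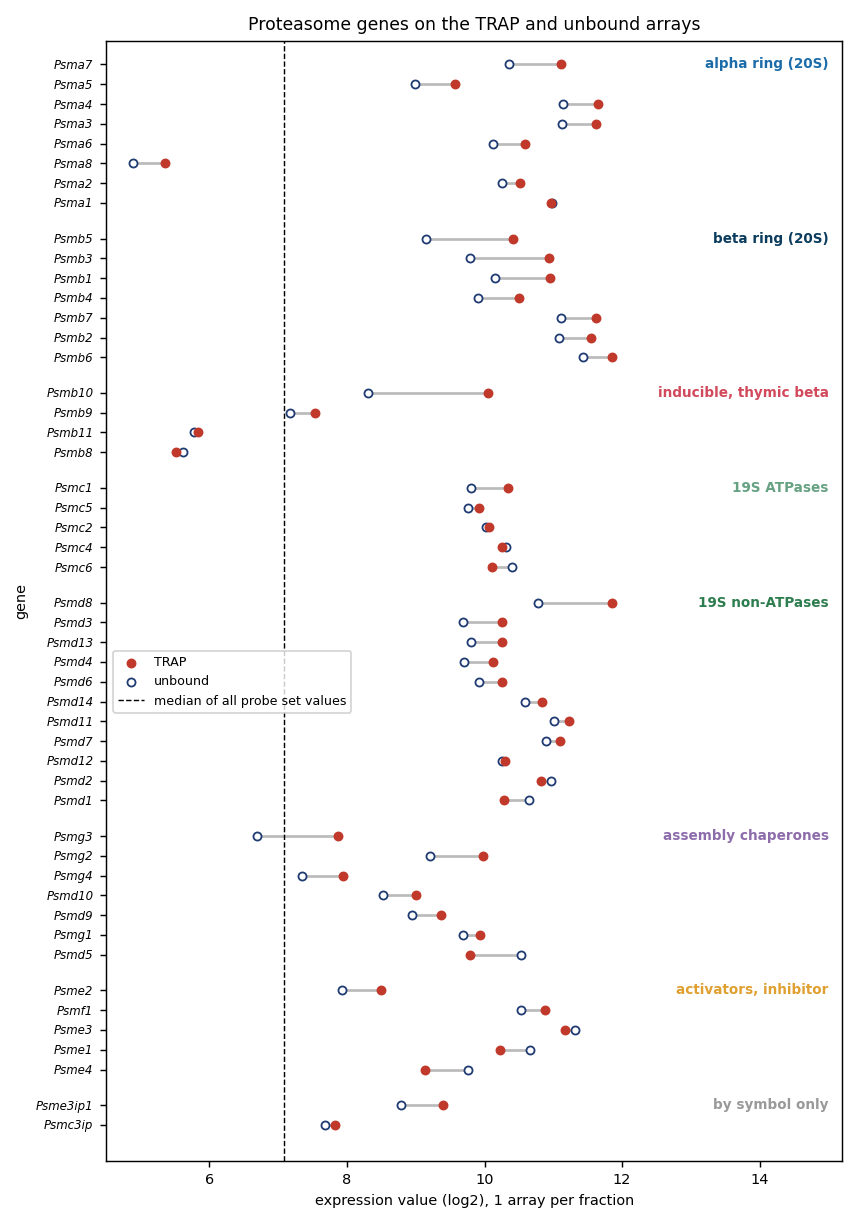
Expression value (log2, horizontal axis) of each of the 49 proteasome genes on the TRAP array (filled red) and the unbound array (open blue), grouped by role and ordered by difference within a role. A dashed line marks the floor at 7.08; Psma8, Psmb8 and Psmb11 lie left of it on both arrays and Psmg3 crosses it.

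The inducible subunits split. Psmb10, which replaces Psmb7 in the immunoproteasome, read 10.06 in TRAP and 8.31 in unbound. This 3.35-fold difference was the largest of the family and ranked 147 among the 10524 genes above the floor. Among the 2615 genes whose mean level lay within 0.5 of that of Psmb10, 98.2% had a lower difference. Psmb9, the counterpart of Psmb6, read 7.54 in TRAP and 7.17 in unbound, just above the floor on both arrays, with a difference of 0.37. Psmb8, the counterpart of Psmb5, read 5.52 in TRAP and 5.61 in unbound, below the floor on both. Psmb11, the subunit of thymic epithelium, read 5.84 in TRAP and 5.79 in unbound. Thus Psmb10 differed by more than its constitutive counterpart Psmb7 under each of the 4 scalings (1.74 and 0.52 as deposited). Psmb9 and Psmb6 differed by 0.37 and 0.43 as deposited, by 0.72 and 0.38 after quantile normalization and by 0.71 and 0.32 after removal of the loess trend, so their order depends on the scaling.

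The immunoproteasome genes are known from immune cells, so the markers of such cells are given beside them. All 9 microglia markers were below the floor in TRAP and 6 of the 9 in unbound. The summed linear signal of the list was 597 in TRAP and 1055 in unbound. All 7 endothelial markers were below the floor on both arrays, with a summed linear signal of 384 in TRAP and 583 in unbound. These sums are made mostly of values below the floor, and their part in the difference of Psmb10 was not tested. Of the genes of antigen presentation and interferon signalling, 9 were measured and 4 lay above the floor. B2m, the light chain of class I molecules, read 7.30 in TRAP against 9.56 in unbound, or 4.79-fold higher in unbound. Tapbp, the loading chaperone tapasin, differed by -0.50, and the interferon gamma receptor gene Ifngr2 by 0.52. The peptide transporter gene Tap2 read 7.13 in TRAP and 6.62 in unbound, so it passed the floor through the TRAP array alone. Its difference was 0.52 as deposited and 0.80 to 1.14 under the 3 other scalings.

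No measured gene next to the inducible subunits was above the floor on both arrays, so no direction is read from these genes. Psmb9, Tap1, Psmb8 and Tap2 follow each other in the RefSeq gene order, and Tap1 read 6.07 in TRAP and 6.37 in unbound, below the floor on both arrays. The neighbours of Psmb10 are Ctrl, below the floor on both arrays, and Lcat, an enzyme of cholesterol esterification, which read 6.08 in TRAP and 8.16 in unbound. Lcat thus passed the floor through the unbound array alone, so that it had to differ, and its direction is not set against that of Psmb10.

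The 19S regulator showed smaller differences than the core. Of its 16 measured genes under the symbol rule 12 were higher in TRAP, with a median of 0.21. Its parts were regrouped, after the values had been seen, into the base, which holds the ATPases and the largest scaffolds, and the lid, which holds the deubiquitinase. All 8 lid genes that the symbol rule found were higher in TRAP, with a median of 0.29. Sem1, a further lid subunit that the rule does not take in, is counted below among the associated factors. It was nearly equal on the arrays, at 10.20 in TRAP and 10.21 in unbound, a difference of -0.02. Of the 8 base genes 4 were higher in TRAP, with a median of -0.01, which was 0.33 with the array medians subtracted, 0.04 after quantile normalization and -0.03 after removal of the trend.

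Among the ATPases, Psmc1 had the largest difference, at 10.34 in TRAP and 9.80 in unbound, with its 2 probe sets at 0.45 and 0.63. Psmc5 read 9.92 in TRAP and 9.75 in unbound, a difference of 0.17. Psmc2 and Psmc4 were nearly equal on the arrays, with differences of 0.04 and -0.06. Psmc6 read 10.11 in TRAP and 10.40 in unbound, a difference of -0.29. The median of the 5 measured ATPase genes was 0.04, so this ring of the regulator lay nearer to the bulk of the genes than the rings of the core. Psmc3, the sixth ATPase, was not analysed here.

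The remaining base genes encode the scaffolds and a ubiquitin receptor. Psmd1, the largest scaffold, read 10.28 in TRAP and 10.65 in unbound, a difference of -0.37. Psmd2, the other scaffold, read 10.82 in TRAP and 10.97 in unbound, and its probe sets gave -0.28 and -0.03. Psmd4, a ubiquitin receptor, read 10.12 in TRAP and 9.70 in unbound, a difference of 0.41. The scaffolds and the receptor of the base therefore differed in opposite directions as deposited. Subtracting the array medians made Psmd2 positive (0.18) and left Psmd1 nearly equal on the arrays (-0.04).

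In the lid, Psmd8 stood apart. It read 11.85 in TRAP against 10.78 in unbound, or 2.10-fold higher. On the log2 scale its difference was 1.07 as deposited and 0.96, short of 2-fold, once the loess trend was removed. Psmd3 and Psmd13 differed by 0.56 and 0.45, and Psmd6 by 0.33. Psmd14, the deubiquitinase that removes the ubiquitin chain, read 10.84 in TRAP and 10.59 in unbound, and its partner Psmd7 read 11.09 in TRAP and 10.90 in unbound. The pair thus differed by similar amounts, 0.25 and 0.19. Psmd11 differed by 0.22, and Psmd12 by 0.04, the lowest of the lid genes found by symbol.

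**Figure D3:**
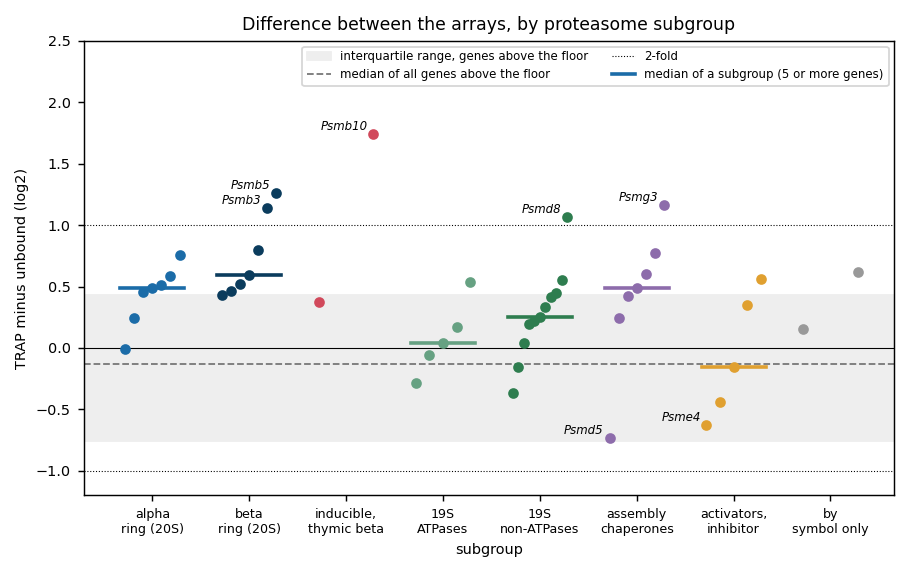
TRAP minus unbound difference (log2) of the 46 proteasome genes above the floor, one point per gene, by subgroup; thick bars are subgroup medians, the grey band is the interquartile range of all genes above the floor, the dashed line their median of -0.13, and dotted lines mark 2-fold. The beta ring lies above the band, with its lowest gene, Psmb6, at the edge (0.434 against 0.430), and Psmb10 stands highest at 1.74. The band is not matched for mean level.

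Of the 7 assembly chaperones, 6 were higher in TRAP and the median was 0.48. Psmg1 and Psmg2 form one heterodimer, and Psmg3 and Psmg4 another, that build the alpha ring. Psmg3 read 7.87 in TRAP against 6.70 in unbound, or 2.24-fold higher, but its unbound value lies below the floor and the fold is uncertain. Its partner Psmg4 read 7.95 in TRAP against 7.35 in unbound, or 1.52-fold higher. Psmg2 read 9.978 in TRAP and 9.205 in unbound, and Psmg1 9.93 in TRAP and 9.69 in unbound. All 4 were higher in TRAP, with the members of each dimer unequal: 0.77 for Psmg2 beside 0.24 for Psmg1, and 1.17 for Psmg3 beside 0.60 for Psmg4.

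The chaperones of the ATPase ring differed in direction. Psmd10, also called gankyrin, read 9.005 in TRAP and 8.52 in unbound, and Psmd9 read 9.37 in TRAP and 8.95 in unbound, with differences of 0.48 and 0.43. Psmd5 read 9.79 in TRAP and 10.53 in unbound. It was 1.66-fold higher in unbound, the largest difference in that direction within the family. Among the 1892 genes of like level to Psmd5, 17.1% had a lower difference.

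The alternative activators were the subgroup with the lowest median, -0.15 over 5 genes including the inhibitor, and this median was 0.18 with the array medians subtracted. Psme1 and Psme2 encode the chains of one ring-shaped activator that interferon induces. Psme1 read 10.22 in TRAP and 10.66 in unbound, whereas Psme2 read 8.49 in TRAP and 7.93 in unbound. The chains of this activator thus differed in opposite directions, by -0.44 and 0.56. Psme1 stayed negative and Psme2 positive under each of the 3 other scalings, where Psme1 ranged from -0.49 to -0.11 and Psme2 from 0.83 to 0.89.

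Emc9, a gene of the endoplasmic reticulum membrane complex, lies between Psme1 and Psme2, and its annotated span overlaps that of Psme1. It read 9.21 in TRAP and 8.15 in unbound. What the overlap contributes to the values of Psme1 was not tested.

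Psme4, which encodes a large activator with a nuclear role, read 9.14 in TRAP against 9.76 in unbound, or 1.54-fold higher in unbound. Psme3, the nuclear activator, read 11.17 in TRAP and 11.32 in unbound. Its difference of -0.15 turned positive (0.18) with the array medians subtracted. Psmf1, named for its inhibition of the core in vitro, read 10.88 in TRAP and 10.53 in unbound. Of the genes taken in by symbol only, Psme3ip1 differed by 0.62 and Psmc3ip by 0.15.

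**Figure D4:**
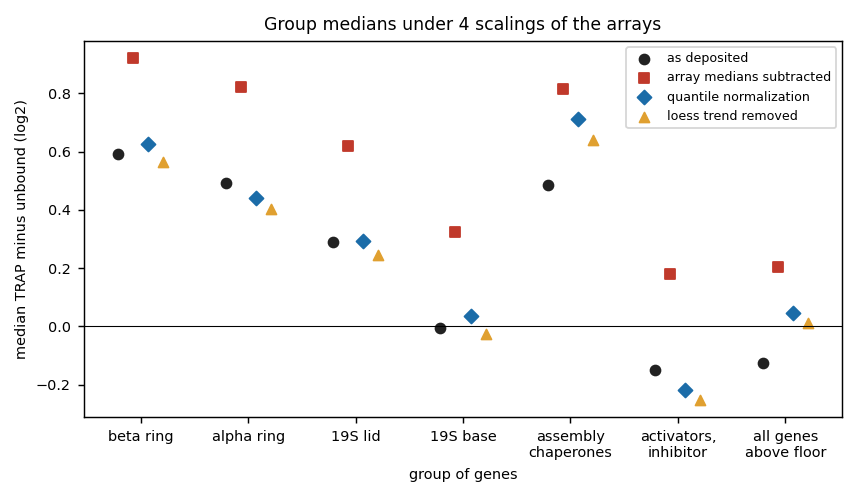
Median TRAP minus unbound difference (log2) of 6 groups of proteasome genes and of all 10524 genes above the floor, with the values as deposited and under 3 other scalings of the arrays. The beta ring lies above the 19S lid, and the lid above the 19S base, in each of the 4 scalings, while the medians of the base and of the activators change sign.

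For genes that work with the proteasome, the split between the fractions depended on the scaling. Of 17 measured associated factors, 9 were higher in TRAP and 8 in unbound as deposited, with a median of 0.01, where 44.1% of all genes above the floor were higher in TRAP. With the array medians subtracted, 16 of the 17 were higher in TRAP, against 59.1% of all genes, and the exception was Ufd1. The count was 10 after quantile normalization (52.0% of all genes) and 9 after removal of the loess trend (50.6%). Ube3c, a ubiquitin ligase bound to the proteasome, read 10.98 in TRAP and 10.08 in unbound, and the deubiquitinase gene Usp14 read 10.09 in TRAP and 9.58 in unbound. Ufd1, a cofactor of the segregase that delivers substrates, read 9.77 in TRAP against 10.98 in unbound, or 2.31-fold higher in unbound. With the array medians subtracted its difference was -0.88, short of 2-fold. Zfand5, a proteasome-binding zinc finger protein gene, differed by -0.21, or 0.12 once array medians were subtracted.

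Of the list of ubiquitin genes and their activation and conjugation, 4 of 10 had a value. Uba6, an activating enzyme, read 7.27 in TRAP against 9.08 in unbound, or 3.51-fold higher in unbound. The conjugating enzyme genes Ube2l3, Ube2k and Ube2d3 were nearly equal on the arrays, with differences of -0.07, -0.07 and -0.02, which were 0.26, 0.26 and 0.32 with the array medians subtracted.

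Among regulators of proteasome gene transcription, 6 of the 8 above the floor were higher in unbound and the median was -0.47. That count was 4 of 8 with the array medians subtracted (median -0.14) and after quantile normalization (median -0.14), and 5 of 8 after removal of the loess trend (median -0.20). Among all genes above the floor, 44.1% were higher in TRAP as deposited. Under the other scalings, in the order given, that share was 59.1%, 52.0% and 50.6%. Nfe2l2, a relative of Nfe2l1 that responds to oxidative stress, read 6.30 in TRAP against 8.997 in unbound, or 6.49-fold higher in unbound, but its TRAP value lies below the floor and the fold is uncertain. Nfe2l1 itself read 8.28 in TRAP and 8.54 in unbound. Its difference of -0.26 was 0.07 with the array medians subtracted, 0.03 after quantile normalization and -0.02 after removal of the intensity trend. Keap1, which holds back Nfe2l2, read 9.38 in TRAP and 8.91 in unbound, Mafg, a small Maf partner of both factors, differed by 0.17, and Sel1l, of endoplasmic reticulum degradation, by -1.07 (-0.74 with the array medians subtracted).

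Other promoter motifs were searched after the values had been seen, which made 9 in all, and matches of different motifs may overlap. The ETS factor site CCGGAAG occurred in 14 of the 42 promoters (33.3%), against 9.12% of all promoters. The GC box GGGCGG occurred in 54.8%, against 35.9%, and the interferon response core (GAAA, any pair of bases, GAAA) in 11.9%, against 3.49%. The matches of that core lay in Psmb3, Psmd4, Psmd9, Psme1 and Psmg4, and none lay in Psmb8, Psmb9, Psmb10 or Psme2. Shares near or below those of all promoters were found for CCAAT (35.7% against 37.9%), TTCNNNGAA (7.14% against 8.47%) and TATA (26.2% against 37.4%). The palindrome bound by the factor NRF1 (gene Nrf1, which is not Nfe2l1) occurred in 2 promoters (4.76%), against 0.977% of all promoters. The YY1 site occurred in 1 (2.38%), against 0.899%.

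Genes with and without the ETS site were set side by side. The 14 genes with it had a median difference of 0.18, and the 26 genes above the floor without it had 0.47, but the ranges overlapped almost wholly, from -0.63 to 1.17 with the site and from -0.73 to 1.74 without it. Of the 5 genes past 2-fold, Psmg3 held the site, and Psmb3 held the interferon response core.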

How the data were processed

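The values the authors deposited, a single log2 figure for every probe set on each array, were produced in Affymetrix Power Tools according to the submitters' processing notes, with version, background correction, normalization and summary method not given in the sources used here. Their log base is unstated too: as natural logs the highest value would give a signal of 847885, above the 65535 of a 16-bit scanner. Of 22097 probe sets, 20999 name 1 gene in the platform annotation, 91 (several genes) were left out and 1007 have no name here. Probe sets were averaged per gene with pandas 2.3.3. With 1 array per fraction no test was run, and genes are described by size, at least 2-fold. The number of arrays limits the precision. Every gene the symbol rule finds could be named. Of each other list up to 4 genes above the floor could be named, 2 from each end, with Pcp2 as the check of the purification. Nfe2l1, Sem1, Tap1, Ctrl, Lcat and Emc9 were singled out after their values were seen. Gene members and lists were chosen with earlier results of these data known. Alternatives were other scalings (loess span 0.3 with statsmodels 0.14.6), floors, fold thresholds and the brightest probe set per gene. Simulated arrays with known differences were used to check the 2-fold threshold on single probe sets. Averaging per gene, the floor, the scalings and the motif search were not part of that simulation.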

Additional observations from a re-analysis of the deposited data

How the results depend on the processing

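No paired analysis was possible because each fraction has 1 array. A median was called moved when it changed by 0.1 or more, and a count when it changed by over 1.5 times. With array medians subtracted, 8 of the 46 proteasome genes were at least 2-fold higher in TRAP, beside 16.1% of all genes above the floor. The family median was then 0.76. The subgroup medians were 0.82 (alpha ring), 0.92 (beta ring), 0.37 (ATPases), 0.58 (19S non-ATPases), 0.81 (assembly chaperones) and 0.18 (activators and inhibitor, reversed), by construction of the constant shift. Quantile normalization gave 0.39 for the family median minus the median of all genes and 0.71 for the chaperones. Removal of the loess trend gave 0.40 for that excess, 0.64 for the chaperones and -0.25 for the activators. Without a floor the excess was 0.33, and against genes of like level, chosen after seeing the data, 0.43. A floor at the 75th percentile gave 0.33 for the chaperones and -0.29 for the activators, with fewer genes. The 1.5-fold threshold gave 12 and 2 genes, and the 4-fold threshold 0 higher in TRAP. Another 49 values of these summaries stayed within these limits. Among them was the count of genes at least 2-fold higher in TRAP. This count was 5 after quantile normalization, beside 11.8% of all genes above the floor. It was 4 after removal of the trend (without Psmd8), also beside 11.8% of all genes. The count was 4 as well with the higher floor and over genes above the floor on both arrays (each without Psmg3). The shares of all genes under those filters are not given here, so these counts cannot be set against a background. No proteasome gene past 2-fold changed sign after quantile normalization, after removal of the trend or with the brightest probe set. The other settings could not have changed the sign of such a difference.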

Other observations

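Families of the ubiquitin system were read by symbol, chosen after the proteasome values had been seen. Symbols starting with Ube2 mostly name ubiquitin-conjugating enzymes. They also take in Ube2cbp, named for its binding to such an enzyme, and conjugating enzymes of other modifiers. Of 29 genes with these symbols above the floor, 17 were higher in TRAP and 12 in unbound, with a median of 0.03. Of all genes above the floor, 44.1% were higher in TRAP. None was at least 2-fold higher in TRAP (8.11% of all genes above the floor) and 2 were in unbound (18.6% of all genes). With the array medians subtracted, 25 were higher in TRAP, against 59.1% of all genes. Ube2g2, an enzyme of endoplasmic reticulum degradation, read 10.26 in TRAP and 9.41 in unbound, and Ube2a, a partner of Rad18 in DNA damage tolerance, 9.93 in TRAP and 9.12 in unbound. Ube2c, the partner of the anaphase-promoting complex in mitosis, read 7.55 in TRAP and 9.07 in unbound, and Ube2l6, the conjugating enzyme of the interferon-induced modifier Isg15, 6.07 in TRAP and 7.11 in unbound, so that it passed the floor on the unbound array alone.

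Of 52 deubiquitinase genes above the floor (symbols starting with Usp, Uchl, Otub or Otud), 23 were higher in TRAP and 29 in unbound, with a median of -0.05. At least 2-fold higher were 0 in TRAP (8.11% of all genes) and 7 in unbound (18.6% of all genes), of which Usp40, singled out after its values were seen, passed the floor on the unbound array alone. With the array medians subtracted, 33 were higher in TRAP (59.1% of all genes) and 2 were at least 2-fold higher in unbound (11.8% of all genes). Usp1, a deubiquitinase of DNA repair proteins, read 8.55 in TRAP and 10.11 in unbound, and Usp13 read 8.11 in TRAP and 7.35 in unbound.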
